A study of Mus musculus with 6 samples.

Results

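Serpins are a family of protease inhibitors, and 63 of the 35434 gene rows of the table carried a Serpin symbol of clades a to i. They were chosen by symbol alone, with pseudogene symbols left out. Of these, 15 stood at 1 or more FPKM (fragment counts scaled for gene length and library depth) in 3 or more of the 6 libraries and were tested, 27 were detected below that level and 21 were listed at 0 in every library. The libraries were made from total RNA of large intestine of mice with inflammatory bowel disease (IBD) after transfer of regulatory T cells (Tregs), either Ctrl-Tregs or Lenv-Tregs. By the series title Lenv-Tregs were treated with lenvatinib, an inhibitor of several receptor tyrosine kinases. There were 3 libraries of int 3 and 3 of int 2, names that the labels do not tie to a transfer. Differences are therefore int 3 minus int 2, without a treatment attached, and values of a group follow the order of its libraries 1, 2 and 3. Strain, age, sex and the way in which the disease was induced are not given in the sources used here. Separate animals behind the 3 libraries are not stated, and p-values then cover only library-to-library spread, which may be technical.

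An inhibitory serpin offers an exposed loop as bait. The target protease cuts the loop, stays bound to it by a covalent bond and is dragged to the far pole of the inhibitor, so that each inhibitor molecule is used up with 1 protease. Clade a holds secreted plasma-type serpins, clade b holds serpins that stay mostly inside the cell, and the smaller clades hold inhibitors of clotting, fibrinolysis and complement together with members that have lost inhibition, such as a collagen chaperone. In the gut, serpins face proteases of neutrophils, cytotoxic lymphocytes, epithelial cells and the fibrinolytic system.

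The libraries were of even depth, with 34021820 to 35060599 fragments each as recovered from the steps in the FPKM values. The int 2 libraries were close to each other, with an SD of the log2 difference over tested genes of 0.11 to 0.115 between any pair. Int 3 was far more spread, at 0.271 to 0.513, with int 3-2 and int 3-3 farthest apart. The distal homeobox gene Hoxb13 was measured at 146, 16.4 and 267 FPKM in int 3, against 288, 285 and 288 FPKM in int 2. The labelled tissue carried its markers: all 10 genes of an epithelial marker list were tested, and their summed level was 6768 to 9215 FPKM in int 3 and 7873 to 7894 FPKM in int 2.

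Serpin transcripts together took a larger part of the measured RNA in int 3. Their summed level was 712, 670 and 742 FPKM in int 3, against 588, 578 and 585 FPKM in int 2, and the groups did not overlap. Serpinb6a, Serpinb1a and Serpinh1 alone made up 62.5% to 72.0% of that sum in int 3 and 77.3% to 77.8% in int 2. In whole tissue, a change in the number of cells of a type and a change in RNA per cell cannot be told apart. Of the 15 tested members 3 rose, 2 fell and 10 did not pass (limma on log2(FPKM + 1), adjusted p under 0.05 over all 12525 tested genes). Serpina3n, Serping1 and Serpinb5 rose, and Serpina1e and Serpina9 fell. The unequal spread of the groups makes such calls less strict than the threshold says, as simulated data showed. With a separate variance weight for each group the same 5 members passed. Over all tested genes 8.64% rose and 6.7% fell, 15.3% together. Groups that did not overlap were seen for 8 of the 15 members, 6 of them higher in int 3 and 2 lower, where 40.4% of all tested genes had no overlap. The median log2 change was 0.25 for the tested members and 0.03 for all tested genes. With so few members, and with Serpina1e and Serpina9 past the filter through their int 2 values, these shares are a description and set the family apart from no other genes.

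**Figure D1:**
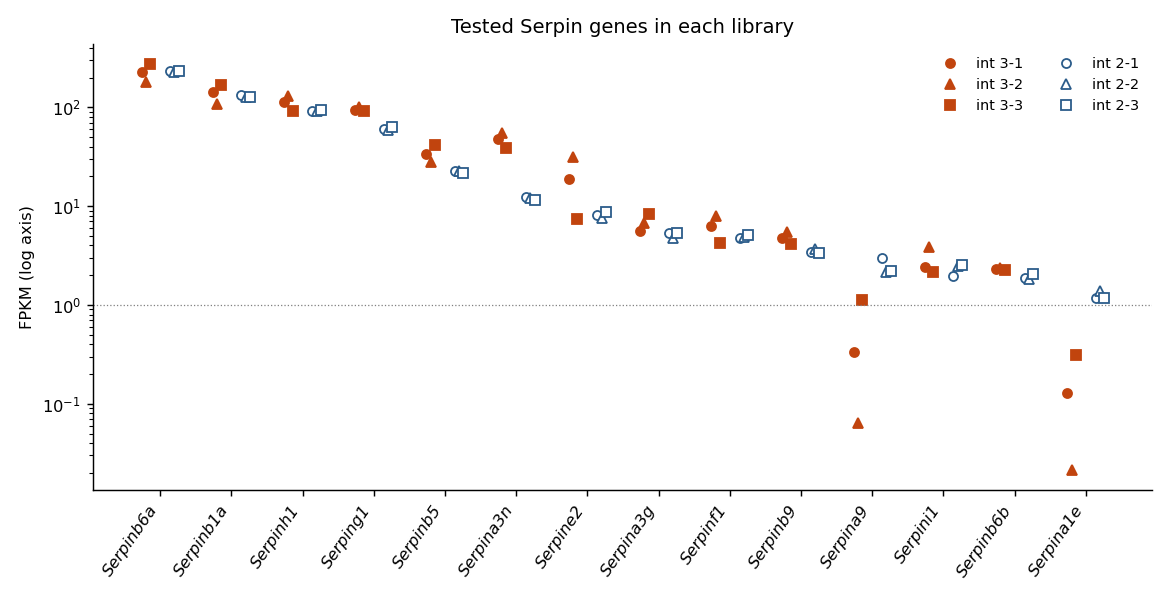
FPKM of 14 of the 15 tested Serpin genes on a log axis, ordered by their int 2 mean, with 1 point per library (filled, int 3, open, int 2; the dotted line marks 1 FPKM). Serpina3n, Serping1 and Serpinb5 lie higher in all 3 int 3 libraries, Serpina1e and Serpina9 lower, and Serpine2 spreads widely within int 3.

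The strongest rise was that of Serpina3n, a secreted inhibitor that in mice acts on granzyme B and elastase and is made in the acute-phase response. It stood at 48.2, 55.2 and 38.4 FPKM in int 3, against 12.5, 12.2 and 11.6 FPKM in int 2. Even the lowest int 3 library was far above the highest of int 2. The means were 47.2 ± 8.42 FPKM in int 3 and 12.1 ± 0.466 FPKM in int 2 (SD, n = 3 libraries each), a ratio of 3.91, and the log2 change was 1.87 (SE 0.13, limma adjusted p = 0.00076). It passed in all 16 alternative fits, with log2 changes of 1.75 to 2.01. Between 3002 and 4184 fragments lay behind each int 3 value, so counting noise is small beside the spread of the libraries. The order of the int 3 libraries, int 3-2 highest and int 3-3 lowest, was also that of the summed markers of fibroblasts (591, 632 and 547 FPKM in int 3, against 507 to 509 in int 2; 4 of 10 rose), endothelium (218, 281 and 158 against 130 to 136; 1 of 10 rose) and adipocytes (175, 277 and 90.5 against 56.8 to 59.1; 1 of 5 tested rose). Their part in the result was not tested.

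Serpina3g is a relative that stays inside the cell and inhibits lysosomal cathepsins in mouse leukocytes. It stood at 5.61, 6.79 and 8.37 FPKM in int 3, against 5.35, 4.78 and 5.29 FPKM in int 2. The int 3 values all lay above those of int 2, by a small step for int 3-1, and the difference did not pass (log2 change 0.35, SE 0.13, limma adjusted p = 0.12). Serpina3g was the 1 tested member whose int 3-1 value did not lie between those of int 3-2 and int 3-3.

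Other members of the Serpina3 group were below the filter and are given as fragments, with ratios of summed fragments corrected for depth and 95% exact intervals that cover counting error only. Serpina3f had 111, 106 and 70 fragments in int 3, against 26, 27 and 24 in int 2, a ratio of 3.72 (2.88 to 4.84). Serpina3m had 28, 52 and 59 fragments in int 3, against 1, 0 and 1 in int 2, a ratio of 69.3 (18.8 to 578). Both sets of values were free of overlap, and in the fit without a filter both passed with a higher level in int 3 (limma adjusted p = 0.021 for Serpina3f and 0.017 for Serpina3m). That fit covered 24866 genes, of which 1670 passed in either direction. Serpina3c, with 20, 32 and 25 fragments in int 3 against 12, 1 and 2 in int 2, missed the threshold in that fit (limma adjusted p = 0.052). Serpina3i was high in 1 library, with 8, 23 and 6 fragments in int 3, against 4, 5 and 5 in int 2. Serpina3k and Serpina3j had 4 fragments and 1 fragment in all, and Serpina3a and Serpina3b were listed at 0. These genes are relatives with short stretches in common. Of the windows of 100 bases in their annotated transcripts, 1.46% of Serpina3f, 1.64% of Serpina3g, 0.0509% of Serpina3n and 6.09% of Serpina3m recurred in another Serpin gene, and 0% of Serpina3c. The counting of fragments that fit several genes is not given in the sources used here.

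Serpin promoters were read for letters of cytokine and stress response elements. RefSeq promoters (build GRCm38.p6, 250 bases before to 50 after the gene start) matched 54 of the 63 members and 11 of the 15 tested, with 63 promoters in all since some genes have several. Letters were searched on both strands for the interferon gamma-activated site, GAS (TTCNNNGAA), the core of the interferon-stimulated response element (GAAA, any 2 bases, GAAA), an NF-kB element (GGGA, any 2 bases, TTCC) and the heat shock element (GAA, TTC and GAA, parted by any 2 bases). The GAS letters stood in 11 of 63 Serpin promoters, from 8 genes, where 8.3% of all 32851 promoters hold them, and the response element core in 3 of 63, where 3.44% of all do. The NF-kB and heat shock letters were in 0 of the 63 and in 1.47% and 0.603% of all promoters. The stretches below, all on the plus strand with 20 bases either side of the element in capitals, are shown because 3 neighbours of the Serpina3 group on chromosome 12 share the GAS letters in the same surroundings and Serpina3n, the member with the strongest rise, has 1 base changed there.
Serpina3g, chr12:104236094-104236142: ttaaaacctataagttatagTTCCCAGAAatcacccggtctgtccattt
Serpina3f, chr12:104214403-104214451: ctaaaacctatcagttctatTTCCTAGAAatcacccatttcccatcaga
Serpina3i, chr12:104263000-104263048: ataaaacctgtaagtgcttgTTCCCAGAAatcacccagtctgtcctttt
Serpina3n, chr12:104406565-104406613: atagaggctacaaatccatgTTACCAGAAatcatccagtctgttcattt
The capitals of the first 3 are GAS letters, which begin 33, 121 and 102 bases before the gene start of Serpina3g, Serpina3f and Serpina3i. In Serpina3n the capitals mark the only stretch of its promoter with a single difference from the Serpina3g element, C3A, counted from 1 at the 5′ end with the Serpina3g base first. The Serpina3g stretch was identical to that of Serpina3i at 42 of 49 bases, to that of Serpina3n at 35 and to that of Serpina3f at 32. A match of letters shows no binding.

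The falls were both in clade a. Serpina1e, one of the mouse copies of the elastase inhibitor antitrypsin, stood at 0.128, 0.0214 and 0.311 FPKM in int 3, against 1.17, 1.37 and 1.17 FPKM in int 2. That is 6, 1 and 15 fragments in int 3 against 55, 65 and 55 in int 2, with no overlap. The log2 change was -0.96 (SE 0.11, limma adjusted p = 0.0041), and it passed in all 15 alternative fits that tested it. Serpina1e met the filter of 1 FPKM only through its int 2 values, where it is high, and the fit at a mean of 5 FPKM removed it. Serpina1b, another copy, was below the filter at 0.452, 0.0825 and 0.400 FPKM in int 3 and at 0.819, 1.14 and 1.13 FPKM in int 2, again without overlap, with a fragment ratio of 0.304 (0.213 to 0.425, counting error only) and limma adjusted p = 0.054 in the fit without a filter. Serpina1a, Serpina1c and Serpina1d had 5, 20 and 6 fragments in all. Between 13.8% and 58.5% of the windows of 100 bases of the Serpina1a to Serpina1e transcripts recur in another of these genes, so the split of fragments among the copies is uncertain. Antitrypsin is made chiefly by hepatocytes. Of 11 hepatocyte markers 5 were tested, 0 rose and 2 fell, Alb and Ttr, with a median log2 change of 0.06. Their sum was 42.2 to 60.6 FPKM in int 3 and 84.6 to 85.5 FPKM in int 2, a difference that lay in Ttr, the transthyretin gene, at 11.7, 7.29 and 16.6 FPKM in int 3, against 50.2, 51.8 and 48.5 FPKM in int 2. Trf, the transferrin gene, lay the other way without passing, at 34.5, 29.8 and 37.4 FPKM in int 3 and 29.3, 26.9 and 29.5 FPKM in int 2. Alb, the albumin gene, stood at 0.313, 0.228 and 0.304 FPKM in int 3, against 1.77, 1.54 and 1.34 FPKM in int 2 (log2 change -0.99, limma adjusted p = 0.0018), and Cyp3a11 was at 0 throughout. Alb passed the filter only through its int 2 values. The list did not move as a whole, Ttr and Trf were named after their values were seen, and the part of these genes in the fall of Serpina1e was not tested.

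Serpina9, known as centerin and expressed in germinal centre B cells, stood at 0.335, 0.0641 and 1.13 FPKM in int 3, against 2.99, 2.14 and 2.22 FPKM in int 2. All int 3 values were lower, and int 3-2 was nearly empty with 4 fragments. The log2 change was -1.24 (SE 0.26, limma adjusted p = 0.026). It no longer passed without int 2-1, int 2-2, int 2-3 or int 3-1 (limma adjusted p = 0.11, 0.091, 0.094 and 0.11), nor with the smaller pseudocounts, without a filter or with the replicate number as a block (limma adjusted p = 0.055 to 0.084). The B cell markers moved in the same order. All 10 fell, and their sum was 28.3, 5.27 and 46.5 FPKM in int 3, against 166 to 173 FPKM in int 2. Per 1000 FPKM of these markers, Serpina9 stood at 11.9, 12.2 and 24.4 FPKM in int 3 and at 17.7, 12.3 and 13.4 FPKM in int 2. This scale was chosen after the values were seen, and its int 3-2 value rests on 4 fragments and a marker sum of 5.27 FPKM. The part of the B cell markers in the fall of Serpina9 was not tested.

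Serping1, the C1 inhibitor that restrains the first complement proteases and the contact system, rose in the most even way of the 3 members that did. It stood at 95.1, 101 and 91.6 FPKM in int 3, against 60.1, 59.5 and 62.6 FPKM in int 2. The 3 int 3 libraries lay within a factor of 1.11 of each other and clear of int 2. Means were 96.0 ± 4.90 FPKM in int 3 and 60.7 ± 1.65 FPKM in int 2 (SD, n = 3 libraries each), with a ratio of 1.58, a log2 change of 0.65 (SE 0.05) and limma adjusted p = 0.0014, and it passed in all 16 alternative fits. Complement genes rose beside it. Of 9 tested members of the complement and contact list of 15, 8 rose and 0 fell, with a median log2 change of 0.69, and 6 to 9 rose with 1 library left out. Over all tested genes 8.64% rose and 6.7% fell. C1ra and C1s1, the proteases bound by the C1 inhibitor and named after their values were seen, rose by 0.55 and 0.31 on the log2 scale (limma adjusted p = 0.0046 and 0.022). C1qa, a chain of the recognition molecule of that complex, rose by 0.74, the complement gene C4b by 1.00 and the complement gene C2 by 1.15 (limma adjusted p = 0.00089, 0.00097 and 0.0033). The C1q genes are macrophage genes. Of 10 macrophage markers 6 rose, 3 of them the C1q genes already counted among the complement rises, and 1 fell, with a sum of 374 to 473 FPKM in int 3 and 452 to 453 FPKM in int 2, and their part was not tested. Klkb1 and F12, the contact system proteases under the same inhibitor, also chosen after their values were seen, stayed at 0.104 FPKM or less in every library.

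The 2 most abundant clade b serpins, Serpinb6a and Serpinb1a, did not pass. Serpinb6a, whose human counterpart inhibits cathepsin G, stood at 230, 180 and 273 FPKM in int 3, against 234, 229 and 232 FPKM in int 2. Serpinb1a, an inhibitor of neutrophil elastase, proteinase 3 and cathepsin G, stood at 145, 109 and 170 FPKM in int 3 and at 132, 129 and 126 FPKM in int 2. In both genes int 3-2 lay below and int 3-3 above every int 2 library, so the groups overlapped (log2 change -0.04, SE 0.15, for Serpinb6a, which was 0.03 with TPM scaling, and 0.10, SE 0.15, for Serpinb1a; limma adjusted p = 0.86 and 0.67). Without int 3-2, Serpinb1a passed with a log2 change of 0.28 (limma adjusted p = 0.043).

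Serpinb5, maspin, an epithelial serpin that does not inhibit proteases, rose. It stood at 33.6, 27.9 and 41.7 FPKM in int 3, against 22.7, 22.7 and 21.9 FPKM in int 2, with no overlap. The means were 34.4 ± 6.95 FPKM in int 3 and 22.4 ± 0.459 FPKM in int 2 (SD, n = 3 libraries each; ratio 1.54, log2 change 0.58, SE 0.14, limma adjusted p = 0.038). The call was lost without int 2-1, int 2-2, int 2-3 or int 3-1 (limma adjusted p = 0.13, 0.13, 0.14 and 0.13), with the replicate number as a block (0.078), without a filter (0.076) and with median-of-ratios or quantile scaling (0.080 and 0.061), all limma adjusted p. Serpinb6a, Serpinb1a and Serpinb5 shared one order of the int 3 libraries, int 3-3 highest and int 3-2 lowest. The summed epithelial markers had it too (8016, 6768 and 9215 FPKM in int 3-1, int 3-2 and int 3-3, with 0 of 10 passing in either direction). The largest values in that sum were those of Lgals4, Krt8 and Krt19, which shared its order. Krt18, Krt20, Vil1 and Cdx2 of the same list had the reverse order, with Krt20 at 141, 176 and 116 FPKM in int 3. The markers named here were chosen after their values were seen. Per 1000 FPKM of the epithelial sum, Serpinb6a stood at 28.7, 26.6 and 29.6 FPKM in int 3 and 29.7, 29.0 and 29.4 FPKM in int 2, and Serpinb1a at 18.0, 16.1 and 18.4 FPKM in int 3 and 16.8, 16.3 and 16.0 FPKM in int 2. On the same scale Serpinb5 stood at 4.19, 4.12 and 4.52 FPKM in int 3, against 2.88, 2.87 and 2.77 FPKM in int 2. This scale was chosen after the values were seen and depends on which markers dominate the sum. The part of the epithelial markers in the 3 genes was not tested. The squamous markers summed to 10.7, 16.1 and 5.82 FPKM in int 3, against 1.85, 2.16 and 1.15 FPKM in int 2. That sum was nearly all Sprr1a, the 1 tested gene of 10, which rose, at 9.87, 14.8 and 4.55 FPKM in int 3, against 1.26, 1.21 and 0.445 FPKM in int 2. Krt14 and Krt15 overlapped between the groups, Krt6a and Sprr3 were at 0, and the list did not move as a whole. Sprr1a, Krt14 and Krt15 were named after their values were seen, and the part of these genes in the rise of Serpinb5 was not tested.

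**Figure D2:**
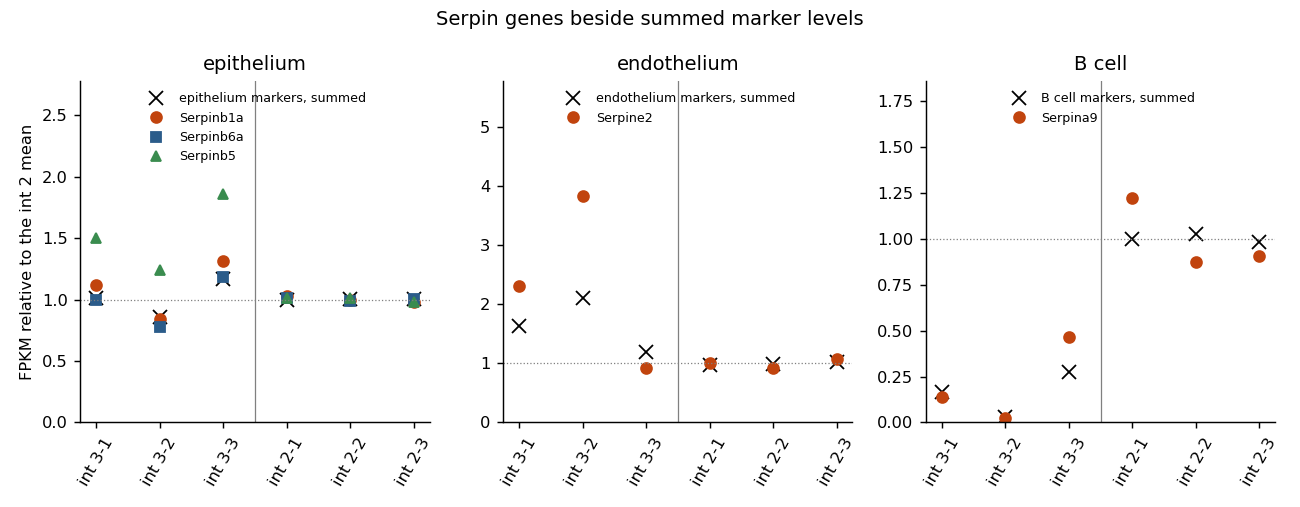
FPKM of Serpin genes and summed FPKM of marker lists (crosses), each divided by its int 2 mean, in the 3 int 3 and the 3 int 2 libraries. Serpinb1a and Serpinb6a lie near the epithelial sum in every library and Serpinb5 above it in int 3, Serpine2 exceeds the endothelial sum in int 3-1 and int 3-2, and Serpina9 is low where the B cell sum is low.

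Serpinb9, the inhibitor that shields cells from their own or incoming granzyme B, was just short of the threshold. It stood at 4.80, 5.44 and 4.13 FPKM in int 3, against 3.42, 3.73 and 3.40 FPKM in int 2. All int 3 values were higher (log2 change 0.35, SE 0.10, limma adjusted p = 0.057). The gene passed in 3 of 15 alternative fits, with median-of-ratios scaling, with quantile scaling and without int 3-3 (limma adjusted p = 0.033, 0.024 and 0.0081). It was farther from the threshold without int 2-1, int 2-2, int 2-3 or int 3-1 (limma adjusted p = 0.19, 0.14, 0.19 and 0.18) and without a filter (0.11). Its target Gzmb was below the filter, with 35, 33 and 41 fragments in int 3, against 3, 6 and 2 in int 2. The Serpinb9 promoter is shown because it holds the response element core, as do promoters of Serpina3a and Serpinb6a, written here on the plus strand of chromosome 13 as its reverse complement and beginning 46 bases before the gene start.
Serpinb9, chr13:33004475-33004524: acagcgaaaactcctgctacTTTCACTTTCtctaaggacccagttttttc
Serpinb6b, a close relative of Serpinb6a, varied least of all tested members in int 3, at 2.31, 2.34 and 2.24 FPKM in int 3, against 1.88, 1.84 and 2.07 FPKM in int 2 (log2 change 0.17, SE 0.07, limma adjusted p = 0.13). The groups did not overlap, but the step between them was small. Of the other 23 clade b genes, 14 were at 0, among them the Serpinb3 genes and Serpinb13 of squamous epithelium, and 9 had fragments without reaching 1 FPKM. Serpinb8, an inhibitor of furin in humans, was the best covered of these with 118 fragments in int 3 and 154 in int 2. Serpinb1c had 28, 3 and 52 fragments in int 3-1, int 3-2 and int 3-3, in the order of Serpinb1a, against 17, 9 and 18 in int 2. Serpinb2, an inhibitor of urokinase, had 4, 0 and 1 fragments in int 3 and 0 in int 2.

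Serpine2, protease nexin, which inhibits thrombin and plasminogen activators at the cell surface, differed between int 3 libraries more than between the groups. It stood at 18.9, 31.4 and 7.50 FPKM in int 3, against 8.20, 7.54 and 8.73 FPKM in int 2. Int 3-3 lay below every int 2 library and int 3-2 far above. The difference did not pass (log2 change 0.95, SE 0.45, limma adjusted p = 0.21), and without int 3-3 it passed with a log2 change of 1.47 (limma adjusted p = 0.0035). In that fit 4913 of all tested genes passed, against 1921 with all libraries. The Serpine2 ratio of int 3-2 to int 3-3 was 4.18, against a ratio of the highest to the lowest int 2 library of 1.16. The summed endothelial markers given above had the same order of int 3 libraries. Per 1000 FPKM of these markers Serpine2 stood at 86.7, 112 and 47.6 FPKM in int 3 and at 63.0, 57.3 and 64.2 FPKM in int 2, a scale chosen after the values were seen, and their part in the values was not tested.

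Plasminogen activators and their partners were mixed. Of 8 tested genes of the fibrinolysis list of 10, 3 rose and 0 fell, where 8.64% of all tested genes rose and 6.7% fell. The median log2 change of the list was 0.39, and 5 of its genes rose and 1 fell without int 3-3. The number that fell was also 1 without int 3-2 and with group weights. Plgrkt, a plasminogen receptor named after its values were seen, was lower without overlap and did not pass, at 53.9, 41.9 and 65.5 FPKM in int 3, against 74.5, 77.9 and 76.6 FPKM in int 2 (log2 change -0.52, limma adjusted p = 0.068). Plau, the urokinase plasminogen activator, stood at 15.2, 11.98 and 18.0 FPKM in int 3, against 5.86, 5.30 and 5.39 FPKM in int 2 (log2 change 1.28, limma adjusted p = 0.0031). Its receptor Plaur rose by 1.06 and Anxa2, a docking protein for plasminogen, by 0.84 on the log2 scale (limma adjusted p = 0.030 and 0.0067). Plat, the tissue activator, did not pass (log2 change 0.52, limma adjusted p = 0.12), and Plg, plasminogen itself, named after its values were seen, was at 0.0106 FPKM or less. Within int 3, Plau was highest in int 3-3 and lowest in int 3-2, the opposite order to Serpine2, while Plaur and Plat followed the order of Serpine2. Of 9 tested coagulation genes of 22 listed, F3, the tissue factor gene, and Pros1, the anticoagulant protein S gene, rose by 0.68 and 0.48 (limma adjusted p = 0.0096 and 0.042) and 0 fell. The coagulation count was 4 with TPM scaling, 1 with the replicate number as a block, 0 without int 2-1, int 2-2 or int 3-1, 1 without int 2-3, 4 without int 3-2 and 5 without int 3-3.

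**Figure D3:**
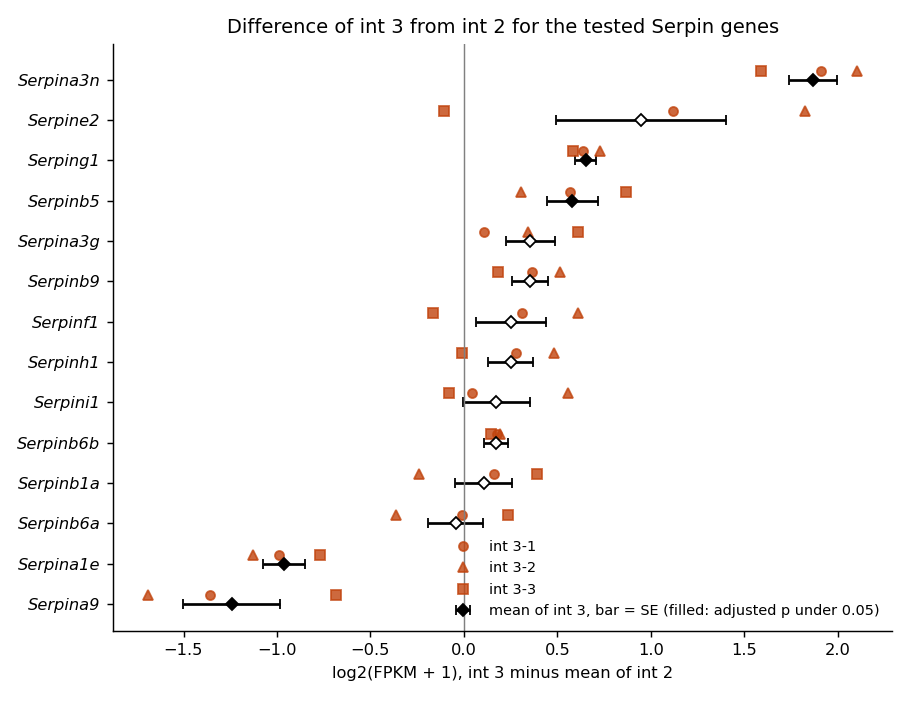
Difference of int 3 from int 2 on the log2(FPKM + 1) scale for 14 tested Serpin genes, with the group difference and its SE (diamonds, filled where adjusted p is under 0.05) and each int 3 library against the int 2 mean (orange). Serpine2, Serpinf1, Serpinh1 and Serpini1 have int 3-2 on the right and int 3-3 at or left of 0, and Serpinb1a and Serpinb6a have the reverse order.

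The tested members of clades h, f and i shared the order of Serpine2 in the highest and lowest int 3 library. Serpinh1 encodes a collagen chaperone of the endoplasmic reticulum and inhibits no protease. It stood at 113, 130 and 92.0 FPKM in int 3, against 91.8, 92.4 and 94.4 FPKM in int 2, and int 3-3 lay within int 2 (log2 change 0.25, SE 0.12, limma adjusted p = 0.21). Serpinf1, the secreted pigment epithelium-derived factor, which is not an inhibitor either, stood at 6.34, 8.01 and 4.28 FPKM in int 3 and at 4.80, 4.88 and 5.05 FPKM in int 2. Serpini1, neuroserpin, an inhibitor of the tissue plasminogen activator in neurons, stood at 2.42, 3.87 and 2.14 FPKM in int 3 and at 1.97, 2.47 and 2.54 FPKM in int 2. For both, int 3-2 was above every int 2 library and neither passed (log2 change 0.25 and 0.17, SE 0.19 and 0.18; limma adjusted p = 0.39 and 0.53). Without int 3-3, Serpinh1 and Serpinf1 passed with log2 changes of 0.38 and 0.46 (limma adjusted p = 0.0084 and 0.014), in the fit where 4913 of all tested genes passed. The summed markers of enteric neurons and glia, beside Serpini1, were 116, 147 and 78.0 FPKM in int 3, against 76.1 to 83.2 FPKM in int 2, with 1 of 9 tested higher, and their part was not tested.

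Collagens, the clients of Serpinh1, rose, and some of the enzymes and chaperones that fold them passed with them. All 17 of the list were tested, and 11 rose and 0 fell, where 8.64% of all tested genes rose and 6.7% fell. The median log2 change of the list was 0.42. The rises were all 8 collagens and 3 of the 9 folding partners, Plod2, Crtap and Fkbp10. The 6 that did not pass were Plod1, P4ha1, P4ha2, P4hb, P3h1 and Ppib, named with the others after their values were seen. The first 5 had positive log2 changes of 0.43, 0.14, 0.55, 0.32 and 0.38, and Ppib was slightly lower in every int 3 library (log2 change -0.08). Of the 17, 14 were higher without overlap and 1 was lower, where 40.4% of all tested genes had no overlap. The count was 5 with the replicate number as a block, 7 without a filter, 3 without int 2-1, int 2-2, int 2-3 or int 3-1, 12 without int 3-2 and 16 without int 3-3. Col1a1, a chain of fibrillar collagen, stood at 57.0, 68.4 and 48.2 FPKM in int 3, against 37.6, 36.4 and 37.9 FPKM in int 2 (log2 change 0.61, limma adjusted p = 0.023), in the same order of int 3 libraries as Serpinh1. The members with the smallest p, Col6a1, Col1a2 and Col3a1, rose by 0.49, 0.37 and 0.35 on the log2 scale (limma adjusted p = 0.0031, 0.0040 and 0.0045).

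Plasma serpins of the liver were scarce. Serpinc1, antithrombin, had 9, 6 and 8 fragments in int 3, against 18, 23 and 22 in int 2, a ratio of 0.364 (0.215 to 0.595, counting error only), and was lower in the fit without a filter (limma adjusted p = 0.014). Serpina12, vaspin, an adipose-derived serpin, had 0 fragments in all int 3 libraries and 7, 8 and 7 in int 2. Against a floor of 3 fragments over the group it was 7.36-fold lower in int 3, a figure that leaves out the counting error of the int 2 fragments. It passed in the fit without a filter (log2 change -0.08, limma adjusted p = 0.0081), at only 0.055 to 0.063 FPKM in int 2. Serpind1, heparin cofactor, was high in 1 library, with 7, 28 and 3 fragments in int 3, against 10, 6 and 10 in int 2. Serpina10, which inhibits activated clotting factor X with protein Z, had 52 fragments in int 3 and 63 in int 2, and Serpinf2, antiplasmin, 19 and 27. Serpinb1b, a low copy of Serpinb1a, had 9, 8 and 8 fragments in int 3 and 5, 3 and 4 in int 2. The ratio was 2.08, with an interval that nearly reached 1 (1.01 to 4.54, counting error only). Serpinb1b passed in the fit without a filter (limma adjusted p = 0.042) at a level near 0.1 FPKM. Thyroxine-binding Serpina7 had 1 fragment. Of the remaining members, Serpina11 and Serpinb10 had 9 fragments in all each, Serpinb7 had 6, Serpinb6c had 2, and Serpinb9b, Serpinb9f and Serpine3 had 1 each. Those listed at 0 throughout, besides the ones named above, were Serpina16, Serpina1f, Serpina5, Serpina6, Serpinb11, Serpinb12, Serpinb6d, Serpinb6e, Serpinb9c, Serpinb9d, Serpinb9e, Serpinb9g, Serpinb9h and Serpini2.

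**Figure D4:**
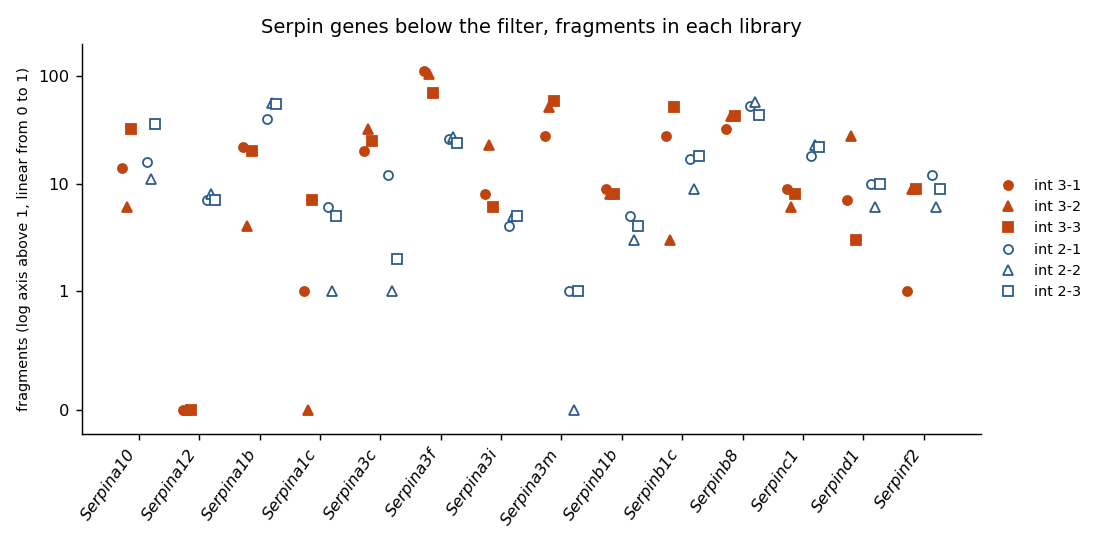
Fragments per library of the 14 Serpin genes below the filter that had 20 or more fragments in all (filled, int 3, open, int 2; the axis is logarithmic above 1). Serpina3f and Serpina3m lie higher in every int 3 library, Serpina12 has fragments in int 2 only, and Serpind1 and Serpina3i are high in int 3-2.

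Within int 3 the tested members split by the library in which they were highest. Of the 15 tested members 9 were highest in int 3-2 and 6 in int 3-3, and int 3-1 was highest for 0. The first set included Serpina3n, Serpinb6b, Serpinb9, Serpine2, Serpinf1, Serping1, Serpinh1 and Serpini1, and the second Serpina1e, Serpina3g, Serpina9, Serpinb1a, Serpinb5 and Serpinb6a. In 14 of the 15, int 3-1 lay between the others, which held for 73.5% of all tested genes. The share of all tested genes highest in int 3-2 or in int 3-3 was not taken, so the split is no trait of the family. The number of members that rose was 3 with all libraries, 2 without int 3-1, 4 without int 3-2 and 8 without int 3-3, with Serpinb9, Serpine2, Serpinf1 and Serpinh1 among those added. In the same fits 1921, 642, 2633 and 4913 of all 12525 tested genes passed, and 56.3%, 57.9%, 54.4% and 63.6% of those were higher. The larger count without int 3-3 was thus seen over all tested genes too. Serpina3n and Serping1 were higher and Serpina1e lower whichever library was left out. The same split ran through markers of tissue composition and position, with Hoxb13, the epithelial sum and the B cell sum highest in int 3-3 and the endothelial, glial and adipocyte sums highest in int 3-2, and their part in the Serpin values was not tested.

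Proteases that serpins restrain and inhibitors of other families were mixed. The leukocyte proteases inhibited by clade b were low. Elane and Ctsg, neutrophil elastase and cathepsin G, were at 0 in every library, and of the 14 listed genes found among the deposited values only the mast cell chymase Cma1, named after its value was seen, was tested, without passing (log2 change -0.25). Below the filter, Prtn3, Gzmk, Gzmm and Tpsb2 overlapped between the groups, and several others were higher in int 3 without overlap. Gzma, a granzyme of cytotoxic lymphocytes, had 45, 18 and 80 fragments in int 3, against 1, 5 and 4 in int 2, and the mast cell protease Mcpt1 stood at 1.57, 0.715 and 2.00 FPKM in int 3, against 0.454, 0.254 and 0.142 FPKM in int 2. In the fit without a filter 1 gene of this list passed, with a higher level in int 3, where 1670 of 24866 genes passed in either direction. No share without overlap was taken over all genes below the filter. Of 3 tested neutrophil markers S100a8 and S100a9 rose, by 2.76 each on the log2 scale (limma adjusted p = 0.0033 and 0.015). Gzma, Mcpt1, Prtn3, Gzmk, Gzmm, Tpsb2, S100a8 and S100a9 were named after their values were seen. Among 11 tested lysosomal cysteine proteases 4 rose and 1 fell (median log2 change -0.03), where 8.64% of all tested genes rose and 6.7% fell. Lgmn, legumain, rose by 1.00, Ctsb, cathepsin B, by 0.40 and Ctsc, an activator of leukocyte proteases, by 0.54, and Ctsh fell by 0.48 on the log2 scale (limma adjusted p = 0.00015, 0.0026, 0.013 and 0.012). Without int 2-1, int 2-3 or int 3-1 the rises were 2, and Ctsh did not pass without any 1 of int 2-1, int 2-2, int 2-3 and int 3-1. Ctsl, a cathepsin that Serpina3g can inhibit, did not pass, at 42.9, 40.8 and 45.9 FPKM in int 3 and 44.0, 45.9 and 44.7 FPKM in int 2.

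Among 13 tested epithelial serine proteases of 17, Prss27 and Furin rose by 1.34 and 0.22, and Klk1, a tissue kallikrein, and Hpn, hepsin, fell by 1.36 and 1.16 on the log2 scale (limma adjusted p = 0.0056, 0.044, 0.00019 and 0.029). Over all tested genes 8.64% rose and 6.7% fell. Prss27 was below 1 FPKM in every int 2 library and passed the filter only through its int 3 values. The other 9 of this list did not pass. The rises were 4 with TPM scaling, 5 without int 3-2, and 1 with median-of-ratios or quantile scaling, with the replicate number as a block, without a filter, at a mean of 5 FPKM, and without int 2-1, int 2-2, int 2-3 or int 3-1. The falls were 1 without each of those 4 libraries, without a filter and at a mean of 5 FPKM. Of 14 tested inhibitors of other families among 26 listed, 2 rose and 3 fell. Slpi, a secreted elastase inhibitor, stood at 32.1, 15.5 and 52.3 FPKM in int 3, against 1.70, 2.03 and 1.98 FPKM in int 2 (log2 change 3.41, limma adjusted p = 0.0040), and Wfdc18, of the same domain family, rose by 2.29 (0.0036). Wfdc1 and the cystatins Cst7 and Cst3 fell by 0.80, 0.91 and 0.23 (limma adjusted p = 0.0029, 0.0083 and 0.023). Cst7 was below 1 FPKM in every int 3 library and passed the filter only through its int 2 values. The number of these inhibitors that fell was 1 without int 2-1 or int 2-2 and 6 without int 3-3. Of 20 interferon-induced genes, listed for the promoter elements above, 18 rose and 0 fell, with a median log2 change of 1.32 and 13 to 20 higher with 1 library left out. Cxcl10, Cxcl9 and Ido1, genes induced by interferon gamma, had the smallest p and rose by 2.63, 2.14 and 2.28 on the log2 scale (limma adjusted p = 8.2e-05, 9.8e-05 and 0.00015). They were below 1 FPKM in every int 2 library and passed the filter only through their int 3 values.

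**Figure D5:**
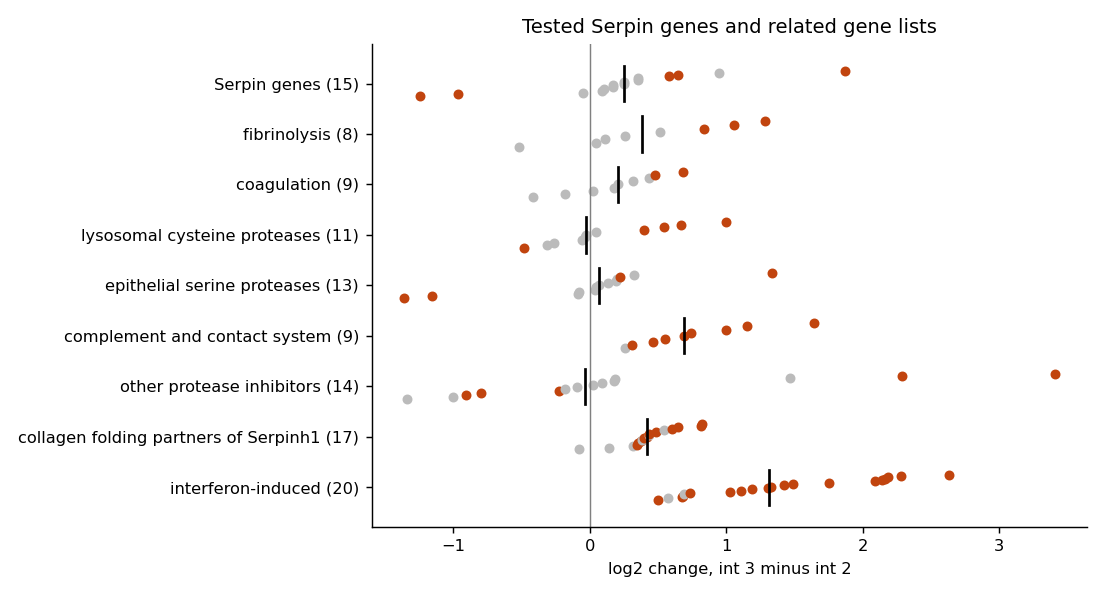
Log2 change, int 3 minus int 2, of the tested genes of each list (points, orange where adjusted p is under 0.05 and grey otherwise; black bar, median; number tested in brackets). The Serpin genes spread to both sides of 0 around a median of 0.25. The fibrinolysis, coagulation, complement, collagen and interferon-induced lists have their called genes on the right only.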

How the data were processed

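Total RNA of large intestine was sequenced in 3 int 3 and 3 int 2 libraries. The authors deposited one table of FPKM values per gene. Per the submitters' processing notes, reads were placed on build GRCm39, and the aligner, counter, annotation and use of strand are not given in the sources used here, so overlapping and antisense genes are uncertain. Whole fragments were recovered from the steps in the FPKM values for 12493 of 12525 tested genes (99.7%, within 0.02 of a whole number).

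Genes at 1 FPKM or more in 3 or more libraries were tested with limma 3.58.1 (R 4.3.3, lmFit and eBayes with trend) on log2(FPKM + 1), with Benjamini-Hochberg adjustment over all tested genes and a threshold of 0.05. Fold changes on this scale understate the change of low genes. Groups came from the sample titles. Alternatives were pseudocounts 0.1 and 0.01, no filter or a mean of 5 FPKM, TPM, median-of-ratios and quantile scaling, group weights, the replicate number as a block, each library left out, and voom on recovered fragments, which was chosen after seeing the data. Tests were checked on simulated data: with equal spread the share of false calls was close to the threshold, and with the unequal spread of these groups it was well above it, so adjusted p-values near the threshold are too small. Tested Serpin genes are named, except 1 that is counted and not reported here; for other lists, the 3 called genes with the smallest p in each direction and a set of fixed names are given. Members, lists and tests were chosen with earlier results of these data known. Promoters and shared transcript windows came from RefSeq GRCm38.p6 and GENCODE tables of that build, and no coordinates of the deposited table were used. Python 3.11.15, pandas 2.3.3 and matplotlib 3.10.9 made tables and figures. No per-library column was left out.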

Additional observations from a re-analysis of the deposited data

How the results depend on the processing

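Serpina3n and Serping1 passed in all 16 alternatives and Serpina1e in the 15 that tested it. Serpina1e met the main filter only through its int 2 values. The count over all genes was 1921 with all libraries, 889 with the replicate number as a block and 615 to 4913 with 1 library left out (635, 615 and 637 without int 2-1, int 2-2 and int 2-3, 642, 2633 and 4913 without int 3-1, int 3-2 and int 3-3). Serpin genes higher, 3 as reported, were 5 without a filter and 2 to 8 with 1 library left out. Serpin genes lower, 2 as reported, were 1 with pseudocount 0.1, 1 with 0.01, 0 at a mean of 5 FPKM or more, where both are removed, 1 with the block and 1 to 2 with 1 library left out. The log2 change of Serpinb6a was 0.026 with TPM scaling and -0.19 to 0.11 with 1 library left out. With 1 library left out that of Serpinb1a was -0.039 to 0.28 and that of Serpini1 -0.017 to 0.30. The causes were not tested beyond what leaving a library out shows. Same-numbered libraries did not deviate together (Pearson's r across genes -0.0147, 0.00407 and -0.0215 for numbers 1, 2 and 3). The int 2 libraries differ too little from each other for these values to exclude a pairing. With the block, Serpinb5 and Serpina9 no longer passed (limma adjusted p = 0.078 and 0.055). Of all called genes 56.3% were higher as reported, 67.7% with TPM, 51.4% with median-of-ratios and 48.5% with quantile scaling. Counts of 1 to 20 fragments limit what can be said of most untested members.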
